A study of Mus musculus with 188 samples.

Results

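The loci described here are the gene clusters that lymphocytes rearrange to make antigen receptors, as they were replicated in mouse embryonic stem cells (mESCs), which do not rearrange them. They were taken as 5 fixed intervals of the mouse genome mm10, around the constant region genes Ighm (Igh, immunoglobulin heavy chain), Igkc (Igk, kappa light chain), Iglc1 (Igl, lambda light chain), Trac (Tcra/Tcrd, T cell receptor alpha and delta) and Trbc1 (Tcrb, T cell receptor beta). Together they held 179 of the 52685 bins of 50 kb in the deposited tables, of which 113 had the values needed for timing. Igh was chr12:113200001-116000000 with 56 bins, Igk was chr6:67500001-70750000 with 65 bins, and Igl was chr16:19000001-19300000 with 6 bins. Tcra/Tcrd was chr14:52400001-54250000 with 37 bins, and Tcrb was chr6:40850001-41600000 with 15 bins. Bins entered by position alone, without a limit on any measured value.

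In most of these loci many variable (V) segments spread over a long stretch are followed by joining (J) segments and, at the far end, the constant (C) region. Igl is built differently in the mouse, with few V segments and separate clusters of J and C segments. In developing B and T cells the RAG1/RAG2 recombinase cuts next to the segments it joins, at a recombination signal whose first part is a conserved heptamer. Replication timing is the order in which parts of the genome are copied during S phase, and it changes with cell type. The mouse Igh locus is a textbook timing transition region, with an early constant end and late distal V segments in cells that do not use it, and antigen receptor loci in lymphocytes are known for alleles that replicate at different times.

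Single cells of 2 feeder-free mESC lines, grown in N2B27 with 2i and LIF, were sorted by DNA content, and each genome was amplified and sequenced at low coverage. H129-2 is a haploid line of strain 129, and F121-9 is a hybrid diploid line with a Castaneus and a 129 chromosome set, so that the homologs can be told apart. After quality control by the authors and matching by well, 75 haploid and 63 diploid cells of S phase had values. The labels give each line the well positions of 1 plate and name no culture, so each line counted as 1 sample and no test was made between them. Line, plate, ploidy and strain cannot be told apart, and neither can culture from line. Every SD below is a spread over cells of a line. It does not measure the uncertainty of a mean, so a gap smaller than the SD does not show that the means agree. The unit of the smoothed table is a copy number score, centred and scaled within each cell, where higher values mean more copies. The unit of the binarized table is a state, 1 for replicated and 0 for unreplicated. Read depth per cell is unknown from these tables. Progress through S phase, the share of 45112 autosomal bins already replicated, averaged 61.1% ± 16.9 over the haploid cells (SD, n = 75, 24.6% to 88.6%) and 54.1% ± 9.56 over the diploid ones (SD, n = 63, 18.2% to 79.1%). Mid-S-phase cells are those between 40% and 60%, 25 haploid and 45 diploid. Among the diploid cells 3 pairs had nearly the same profile, with an r of their deviations from the line mean of 0.54 to 0.83, and leaving out 1 cell of each pair moved no line difference or asynchrony of a locus beyond the spread over cells. A haploid pair, at 27.4% and 24.6% progress, had an r of 0.51 and was kept, and neither of its cells entered the line differences.

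The C side of each locus is represented here by a J segment, because the gradients are described from that side and J segments lie next to the constant genes. It is the lowest-numbered annotated J segment, and for Tcra/Tcrd the lowest-numbered one of the alpha chain. Each sequence is the 39 bases before the J segment followed by the segment, read from the mm10 genome on the strand of the gene, and capitals mark the 7 bases that touch the J segment, the place of the heptamer. The spans are chr12:113429781-113429872 on the minus strand for Ighj1, chr6:70722523-70722599 on the plus strand for Igkj1, chr16:19063225-19063301 on the minus strand for Iglj1, chr14:54217797-54217901 on the plus strand for Traj2 and chr6:41533825-41533911 on the plus strand for Trbj1-1.
Ighj1: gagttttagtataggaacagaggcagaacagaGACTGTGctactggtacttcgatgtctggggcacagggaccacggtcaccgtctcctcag
Igkj1: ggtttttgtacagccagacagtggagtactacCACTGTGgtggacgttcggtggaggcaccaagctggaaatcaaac
Iglj1: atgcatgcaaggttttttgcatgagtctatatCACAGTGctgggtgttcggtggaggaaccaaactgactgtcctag
Traj2: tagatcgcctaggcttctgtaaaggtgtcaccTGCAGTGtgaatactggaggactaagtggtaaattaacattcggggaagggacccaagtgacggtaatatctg
Trbj1-1: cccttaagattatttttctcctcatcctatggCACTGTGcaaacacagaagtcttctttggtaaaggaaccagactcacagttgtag
The exact letters CACTGTG, searched on the strand of the gene, stood at those 7 bases in 20 of the 80 J segments annotated in the loci, or 25%. The same letters stood at the matching position of 4 of 32851 RefSeq promoter windows of 39 bases, or 0.0122%. By locus the count was 0 of 4 J segments in Igh, 3 of 5 in Igk, 1 of 5 in Igl, 15 of 53 in Tcra/Tcrd and 1 of 13 in Tcrb.

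A large part of these loci had no usable value. Of the 179 bins, 66 (36.9%) had no smoothed score in enough cells, against 8.43% of all 49264 autosomal bins, and 35 (19.6%) had no replication state, against 5.12% of autosomal bins. In Igh all 56 bins had a state but 17 had no smoothed score, scattered among the V segments. In Igk a run of 14 bins, chr6:69000001-69700000, had neither value, and 9 more had a state only, which left 42 used bins. In Tcra/Tcrd the run was longer, 21 bins at chr14:52800001-53850000, and 14 of 37 bins were used. Igl kept all 6 bins, and Tcrb kept 12 of 15. Outside Tcrb the missing bins held many V segments, and none of them was an assembly gap. In Tcra/Tcrd 117 of the 136 annotated V segments and V pseudogenes began in bins without a score, in Igk 67 of 176, in Igh 66 of 194, and in Tcrb 0 of 35. The share of undetermined bases in the missing bins was 0% in Igk, Tcra/Tcrd and Tcrb and 0.000118% in Igh. Bins without a score in Tcra/Tcrd held 5.09 V segments each, against 1.36 in the used bins. In Igh the corresponding densities were 3.88 and 3.28, and in Igk 2.91 and 2.60. The authors masked bins of extreme coverage in G1 and G2 control cells and discarded stretches of low control coverage, and which step removed these bins was not tested. Most of the Tcra/Tcrd V cluster is not described here.

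The scheduled time of a bin is its rank in the mean score over cells, placed on an S phase of 10 h, with 0 h the earliest. By this measure the loci fell at very different times in the same cells. Tcra/Tcrd was the earliest, with a mean of 2.998 h over its 14 used bins and a range of 1.64 to 3.66 h. Igl followed at 5.08 h (4.32 to 5.76 h). Igh averaged 7.10 h and spanned most of S phase, from 1.20 to 9.70 h. Igk averaged 7.12 h (4.80 to 8.12 h), and Tcrb was the latest at 8.23 h (7.72 to 8.64 h). The pooled means of Igh and Igk differed by less than the spread over cells. That spread, the SD over cells of the mean rank within a cell, was 0.95 h in haploid and 0.79 h in diploid cells for Igh and between 0.87 and 1.81 h for the others. The lines had Igh and Igk in opposite order. Igh averaged 7.89 h and Igk 6.87 h in the haploid line, against 6.25 and 7.54 h in the diploid line. Scheduled times take in all cells of a line and are not matched for progress between the lines.

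**Figure D1:**
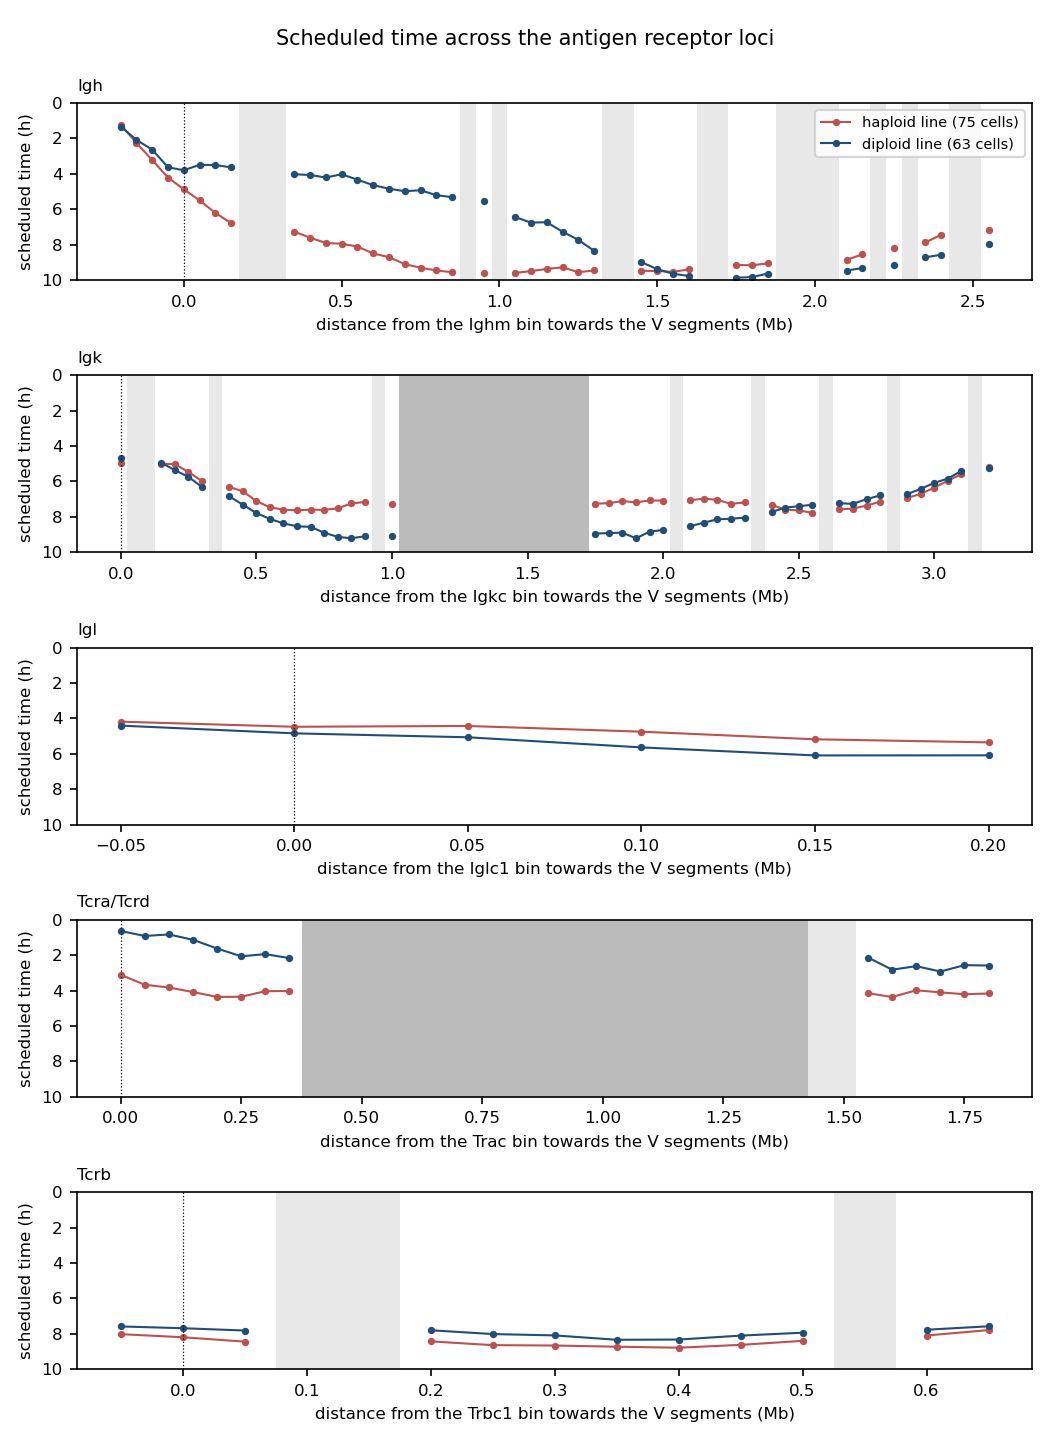
Scheduled time of each 50 kb bin (y axis, h, early at the top) against distance from the bin of the constant region gene towards the V segments (x axis, Mb), for the haploid line in red and the diploid line in blue. Light grey marks bins with a state but no smoothed score and dark grey bins with neither; the Igh curves part beyond Ighm and meet again in the distal V segments, Igk dips in the middle, and Tcrb is late throughout.

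The bins of the constant genes were also counted cell by cell. Ighm (ENSMUSG00000076617.9) encodes the constant region of IgM and lies at chr12:113418558-113422730, in a bin scheduled at 4.34 h. That bin was replicated in 58 of 75 haploid cells (77.3%, exact 95% interval 66.2% to 86.2%) and in 55 of 63 diploid cells (87.3%). Its smoothed score had a median of 0.07 in haploid and 0.15 in diploid cells. Igkc (ENSMUSG00000076609.2), the constant region of kappa light chains at chr6:70726435-70726966, was scheduled at 4.80 h and was replicated in 57 haploid and 47 diploid cells. Iglc1 (ENSMUSG00000105906.1), a lambda constant region at chr16:19061618-19062071, was scheduled at 4.67 h and was replicated in 66 haploid and 45 diploid cells. In the schedule over both lines these 3 bins lay between 4.34 and 4.80 h. In the haploid line Ighm, Igkc and Iglc1 stood at 4.87, 4.94 and 4.47 h. In the diploid line they stood at 3.799, 4.65 and 4.85 h, in another order. The SDs over cells given above are those of locus means, so they cannot show whether these 3 bins share a time.

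Trac and Trbc1 stood at the ends of that order. Trac (ENSMUSG00000076928.5), the constant region of the T cell receptor alpha chain at chr14:54220521-54224206, was scheduled at 1.64 h and was replicated in 68 of 75 haploid cells (90.7%, exact 95% interval 81.7% to 96.2%) and 61 of 63 diploid cells (96.8%). Trbc1 (ENSMUSG00000076490.6), a constant region of the beta chain at chr6:41538218-41539881, was scheduled at 8.01 h and was replicated in 14 haploid cells (18.7%, 10.6% to 29.3%) and 5 diploid cells (7.94%). In mid-S-phase cells Trac had replicated in 24 of the 25 haploid cells and 45 of the 45 diploid cells, and Trbc1 in 0 and 3. The bins of these alpha and beta constant genes thus lay far apart in the schedule of both lines. Trac and Trbc1 stood at 3.10 and 8.20 h in the haploid line and at 0.63 and 7.69 h in the diploid line. Intervals cover the drawing of cells only.

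Igh had a steep gradient at its C end. From 1.20 h at the first bin, beside Crip1 and Tmem121 (0.34 and 0.70 h), the schedule ran to 4.34 h at Ighm, 5.35 h where the V segments begin and 9.70 h at chr12:114950001-115000000. It then turned back to 7.49 h in the last bin, next to Zfp386 at 6.84 h, so the latest part of Igh lay inside the V cluster and not at its end. A straight line through the 39 bins rose by 1.58 h per Mb in the haploid and 2.99 h per Mb in the diploid line. The line does not describe the shape of the curves. In the 0.8 Mb beyond the Ighm bin the haploid schedule ran from 4.87 to 9.46 h. The diploid schedule ran only from 3.799 to 5.21 h there. The lower haploid slope therefore does not mean a shallower fall beyond Ighm. The last bin stood at 7.15 h in the haploid and 7.99 h in the diploid line. Fitted in each cell, the slope was 1.26 ± 0.70 h per Mb (SD, n = 75) and 2.70 ± 0.79 h per Mb (SD, n = 63), and it was positive in 72 of 75 haploid and 63 of 63 diploid cells. The flank on the C side averaged 0.33 h over 1 Mb and the flank beyond the V segments 4.80 h. GC content was highest near the C end, at 50.9%, and lowest, at 37.2%, at chr12:114050001-114100000, which was scheduled at 6.64 h. The latest bin had 38.7%, so the lowest GC content and the latest time did not coincide among the V segments. Across the 39 bins, with the GC-rich C end among them, GC content and time had a Pearson r of -0.81. Across all used bins it was -0.79. It was not computed for the V segments alone. Neighbouring bins share their smoothing, and the part of base composition in the gradient was not tested.

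The position of the fall differed between the lines. The haploid schedule passed 5 h in the bin next to Ighm, 0.05 Mb into the D and V side. The diploid schedule stayed between 3.49 and 4.98 h over the next bins and passed 5 h only at 0.80 Mb, which is 0.75 Mb farther. Runs of replicated bins were also measured in single cells. Counted from the first bin of the C end, the unbroken run of replicated bins in mid-S-phase cells had a median of 0.60 Mb in haploid cells (quartiles 0.25 and 0.75 Mb) and 1.05 Mb in diploid cells (0.75 and 1.25 Mb). The longest run was 1.70 Mb in the haploid and 1.60 Mb in the diploid mid-S-phase cells, so the runs of the lines overlapped. Only 1 haploid cell and 0 diploid cells had replicated the whole locus.

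**Figure D2:**
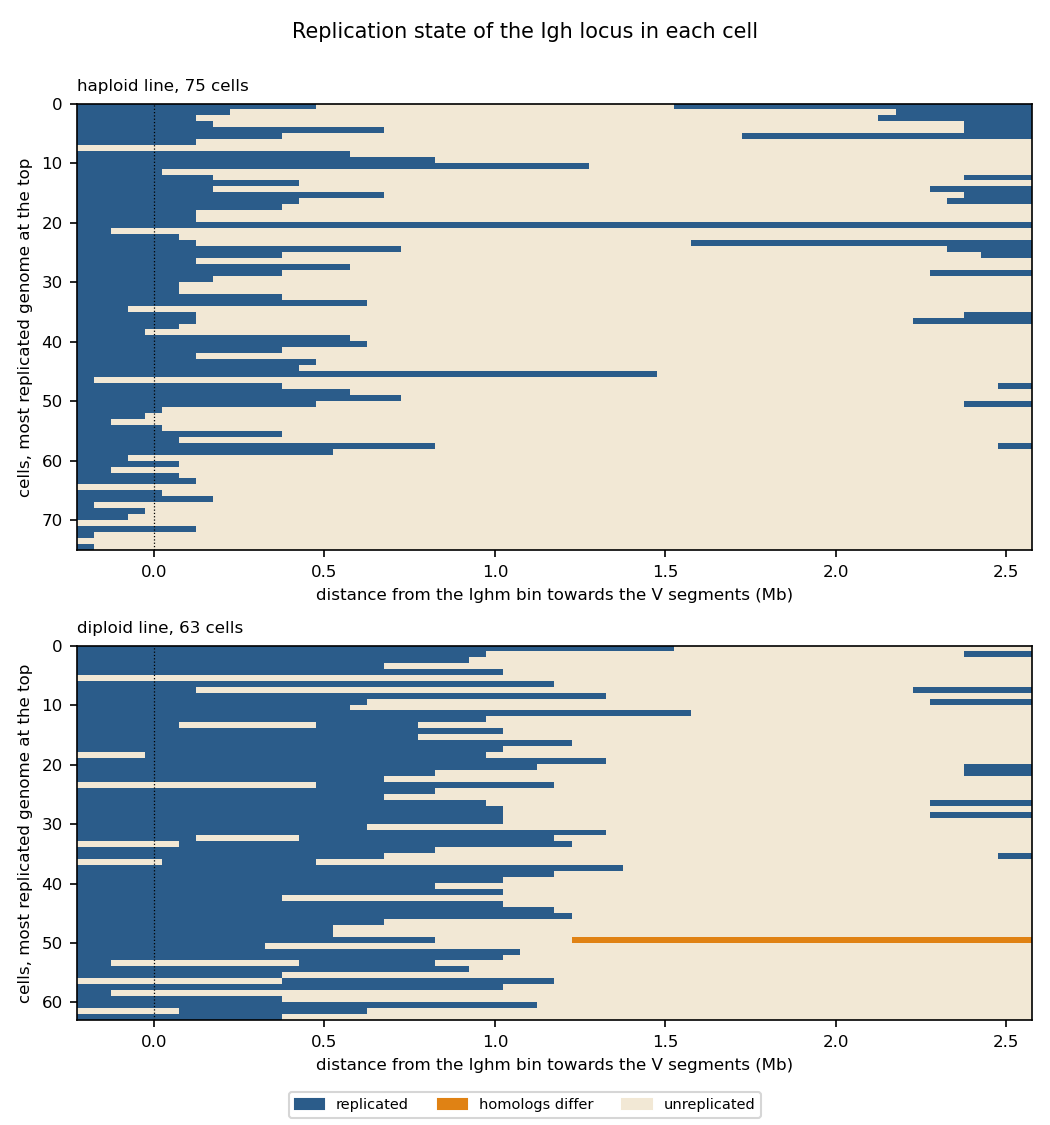
Replication state of the 56 Igh bins (x axis, distance from the Ighm bin in Mb) in each cell (y axis, the cell with the most replicated genome at the top), with 75 haploid cells above and 63 diploid cells below. In most cells a replicated run starts at the C end, with a mid-S-phase median of 0.60 Mb in haploid and 1.05 Mb in diploid cells. The C end is unreplicated in 4 haploid and 7 diploid cells, some cells also have a run from the distal end, and the only cell with differing homologs lies in the distal V segments.

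Line differences were taken at matched progress, as the haploid minus the diploid mean score within steps of 10 percentage points between 40% and 70% replicated, which used 39 haploid and 58 diploid cells. Over all used bins this difference had an SD of 0.19. In Igh, 13 of 39 bins were higher in the diploid line by at least 0.5, against 1.04% of all bins tested. No Igh bin was higher in the haploid line by that much, against 0.607% of all bins. The 13 bins spanned chr12:113550001-114400000, 0.85 Mb with 4 unscored bins among them, from where the V segments begin. The lowest value, -0.81 at chr12:114150001-114200000, ranked 20 from the bottom among 45112 bins. The bin of Ighm itself differed by -0.13. Beyond the stretch the difference shrank, crossed 0 among the distal V segments and reached 0.33 in the last bin, while the first 4 bins of the C end differed by -0.01 to -0.06. With the limit set at 0.3, 17 Igh bins were higher in the diploid line and 2 in the haploid line, against 5.36% and 6.51% of all bins. The deposited scores were median smoothed over 15 windows, or 750 kb, so the 13 bins are close to a single smoothed unit and not 13 separate measurements. The members just inside and just outside the limit were -0.52 and -0.42.

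**Figure D3:**
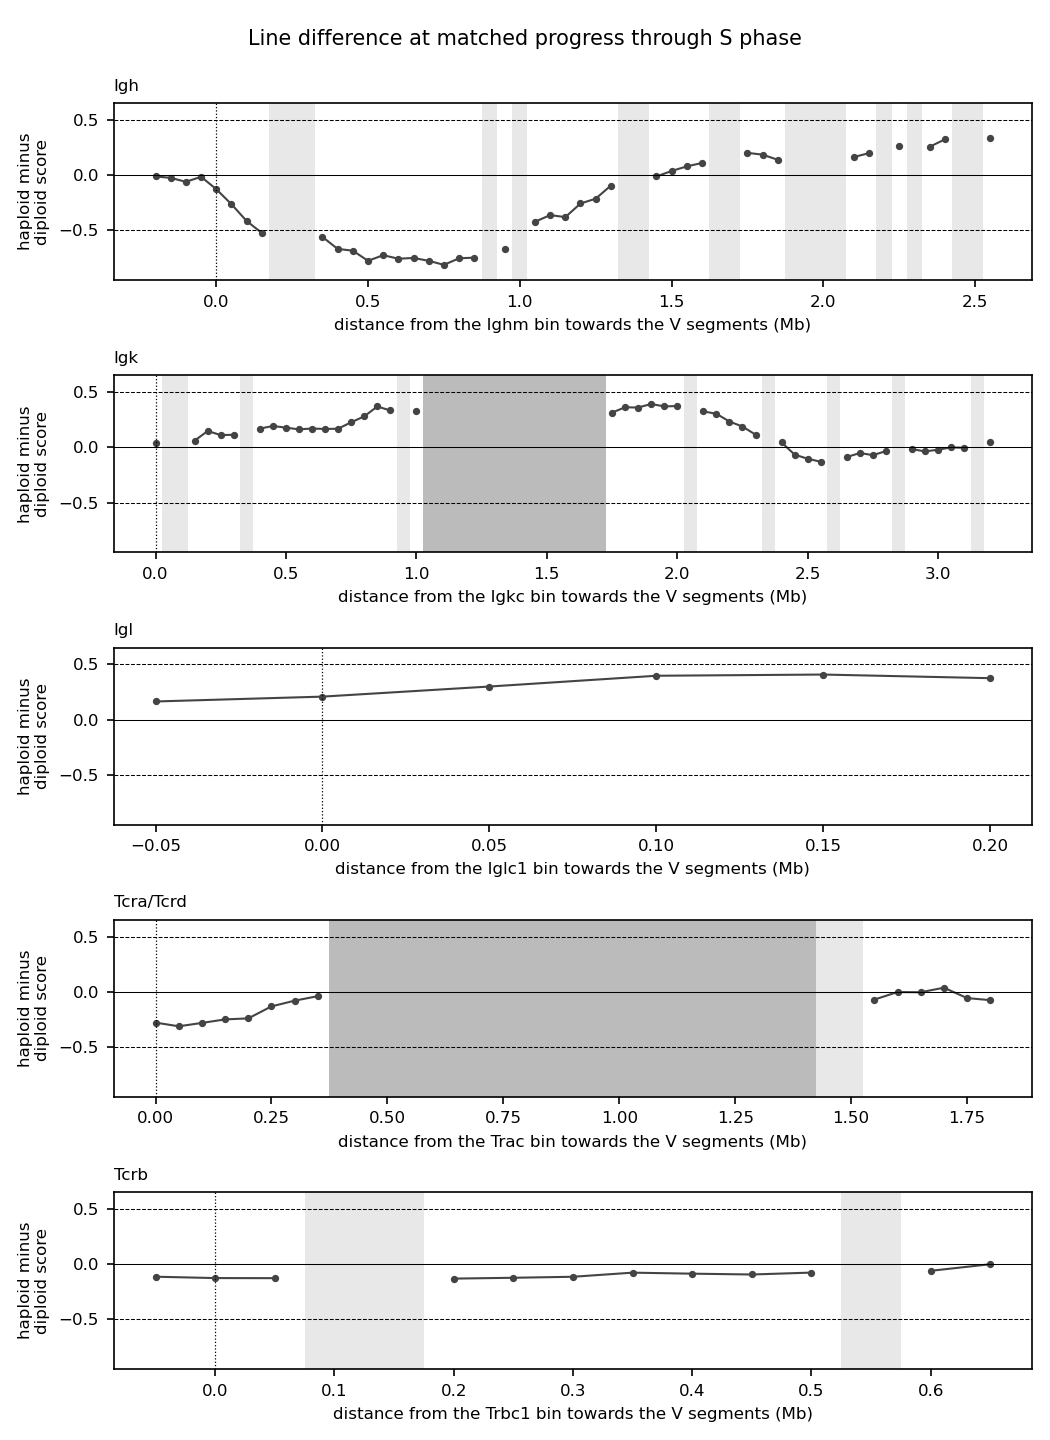
Haploid minus diploid copy number score at matched progress (y axis) for each bin by distance from the constant region gene (x axis, Mb). Dashed lines mark -0.5 and 0.5 and grey bars the unscored bins as before; Igh falls below -0.5 beyond Ighm, the middle of Igk and all of Igl lie above 0, and Tcrb stays between -0.13 and 0.

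The 13 bins were chosen for this difference, so their values in the cells that entered it are a description. Over all cells the mean score of the stretch was -0.76 ± 0.35 in haploid cells (SD, n = 75), from -1.32 to 0.02 around a median of -0.86. In diploid cells it was 0.04 ± 0.29 (SD, n = 63), from -0.58 to 0.61 around a median of 0.08. The ranges overlapped, but 74 of 75 haploid and 30 of 63 diploid cells lay below 0. Cells under 40% replicated did not enter the difference. There the 11 haploid cells had a median of -0.99 (-1.32 to -0.28) and the 4 diploid cells 0.16 (-0.54 to 0.20). Among mid-S-phase cells the means of the plate rows ran from -0.94 to -0.21 in 6 haploid rows and from -0.13 to 0.27 in 8 diploid rows. Several rows held few cells. These cells had all entered the choice of the 13 bins, so the gap between the rows of the lines is no separate support.

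**Figure D4:**
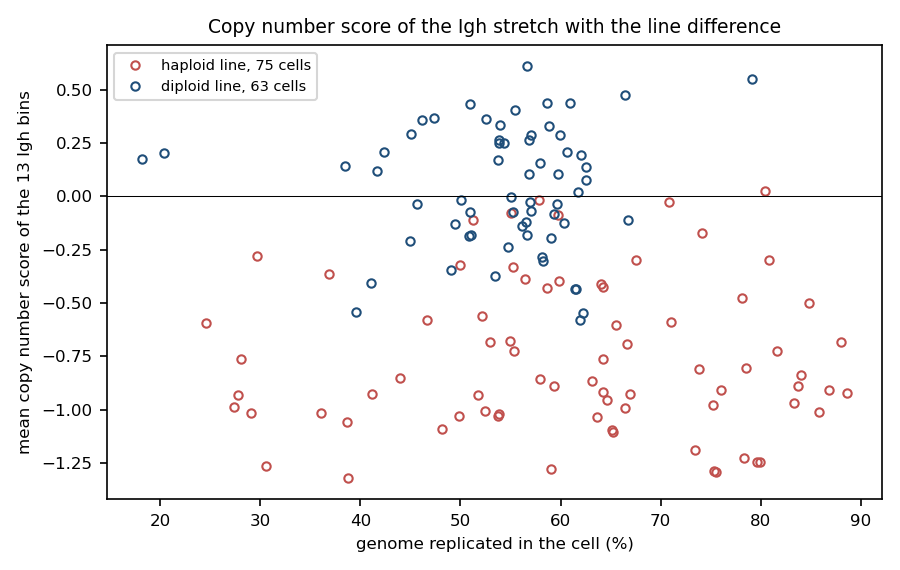
Mean copy number score of the 13 Igh bins (y axis) in each cell against the share of its genome replicated (x axis, %), haploid cells in red and diploid cells in blue. Of the haploid cells 74 of 75 lie below 0, across the whole range of progress, while 30 of 63 diploid cells do.

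In replication states, the stretch was 18.6% ± 28.02 replicated in the haploid line (SD, n = 75) and 74.8% ± 32.2 in the diploid line (SD, n = 63). None of its bins was replicated in 39 haploid and 3 diploid cells, and all were in 3 haploid and 30 diploid cells. In mid-S-phase cells the shares were 22.8% and 78.5%. Bins elsewhere within 0.5 h of the mean time of the stretch in their own line, 8.45 h haploid and 4.60 h diploid, were also counted. They were replicated in 5.24% of haploid and 70.1% of diploid mid-S-phase cases. In cells over 60% replicated the stretch reached 20.9% in 39 haploid cells, where those bins reached 31.1%. In the 14 diploid cells of that class it reached 71.4%, where those bins reached 86.01%. Neither share of the stretch was above its mid-S-phase value, with SDs over cells of 29.5 and 37.3. Under 40% the stretch was lower, at 0.699% in haploid and 46.2% in diploid cells. Its mean score had an r with progress of -0.00099 in haploid and 0.027 in diploid cells. Scores are centred within each cell, so this r alone does not measure progress. The bins of the stretch covered a wider span, 6.78 to 9.59 h in the haploid and 3.64 to 5.55 h in the diploid line. The shares are therefore not matched in time bin by bin. No cell had differing homologs in the stretch. Equal states are the default of the authors' calls, so the homologs of the diploid line cannot be set against the haploid 129 genome here.

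Igk had the shape of a basin. The schedule ran from 5.22 h at the distal end to a latest value of 8.12 h at chr6:69900001-69950000 and back to 4.80 h at Igkc, and the 14 bins without any value lie in its floor. A straight line therefore described it poorly, with slopes of -0.16 h per Mb in the haploid and 0.11 in the diploid line, each below the SD over cells of 0.84 and 0.70. Both flanks were earlier, 2.35 h on the C side beyond Igkc, with Rpia at 4.44 h and Eif2ak3, a kinase of the unfolded protein response, at 3.89 h, and 4.31 h on the V side, with Serbp1 at 3.62 h. The floor was deeper in the diploid line, whose latest bin stood at 9.22 h, while the latest bin of the haploid line, nearer the distal end, stood at 7.78 h. In score, 11 of 42 Igk bins were higher in the haploid line by at least 0.3, against 6.51% of all bins, and 0 by 0.5, against 0.607%. The highest difference was 0.39, at chr6:68800001-68850000, and the lowest -0.13, at chr6:68150001-68200000. Mid-S-phase cells had replicated 22.9% ± 18.4 of the locus in the haploid (SD, n = 25) and 18.4% ± 15.004 in the diploid line (SD, n = 45), a gap smaller than the spread between cells. In cells over 60%, 13 of 39 haploid and 0 of 14 diploid cells had replicated all of it, but the haploid cells of that class averaged 74.3% and the diploid cells 63.6% of the genome.

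Igl, the smallest locus, lay in the middle of S phase and grew later from its C end, from 4.32 h to 5.76 h over 0.3 Mb. The slope was 4.74 h per Mb in the haploid and 7.27 in the diploid line, but with 6 bins it varied by 7.49 and 7.48 h per Mb over cells and was positive in 51 of 75 and 56 of 63 cells. All 6 bins were higher in the haploid line, by 0.16 to 0.41, and 3 of them by at least 0.3, against 6.51% of all bins. In mid-S-phase cells 78.7% ± 33.5 of the locus was replicated in the haploid line (SD, n = 25) and 57.04% ± 37.5 in the diploid line (SD, n = 45), again a gap below the spread. The Iglc1 bin had replicated in 22 of the 25 haploid mid-S-phase cells and 32 of the 45 diploid ones. Over 60% progress every bin of Igl was replicated in 39 of 39 haploid cells and in 8 of 14 diploid cells. The haploid cells of that class averaged 74.3% and the diploid cells 63.6% progress, so these counts are not matched.

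Tcra/Tcrd was early on both sides of its unmeasured V cluster. In ranks over all cells, not matched for progress, the diploid line was earlier, with a mean of 1.92 h against 4.02 h. The gap widened towards the C end. The bin of Trac stood at 0.63 h in the diploid and 3.10 h in the haploid line, and that of chr14:54100001-54150000 at 0.82 and 3.82 h. The mean score of the locus was 0.43 in haploid and 0.54 in diploid mid-S-phase cells, and 0.08 and 0.52 in cells over 60%. At matched progress the score of the locus differed by -0.13 on average, which is within its spread over cells of 0.32. The first 6 bins, on the V side, differed by -0.08 to 0.04, and the C end by -0.28 at Trac and by -0.31 at the lowest bin, the only one of the locus past 0.3. The flanks differed in the same direction on average. The next bin, with Dad1, a subunit of the oligosaccharyltransferase, and Abhd4, differed by -0.25, and the 1 Mb flanks had mean differences of -0.17 beyond Trac and -0.21 on the V side, where the bin of Mettl3, an RNA methyltransferase, differed by 0.04. The olfactory receptor genes Olfr1507, Olfr1508, Olfr1509 and Olfr1510 share the first 2 bins, scheduled at 3.46 h. In mid-S-phase cells all used bins had replicated in 24 of the 25 haploid cells and 41 of the 45 diploid cells. The slope was -0.18 h per Mb in the haploid and -0.85 in the diploid line, against SDs over cells of 1.004 and 0.798.

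Tcrb was flat and late. Its used bins ran from 7.72 to 8.64 h, the latest at chr6:41100001-41150000 among the V segments, and the largest step between neighbouring bins was 0.27 h. The flank behind the C end was late as well, 7.57 h, and Ephb6 there stood at 8.01 h, while the V-side flank was earlier at 4.80 h, with Mgam at 6.45 h. The trypsinogen gene Prss1, which lies inside the locus, was at 8.21 h. Differences between the lines were small, from -0.13 to 0.00. In mid-S-phase cells 0.333% ± 1.67 of the locus was replicated in the haploid line (SD, n = 25) and 3.70% ± 10.9 in the diploid line (SD, n = 45). Over 60% progress 10 of 39 haploid and 2 of 14 diploid cells had replicated all of it, and 17 and 12 none of it. These counts are not matched either, with mean progress of 74.3% and 63.6%.

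**Figure D5:**
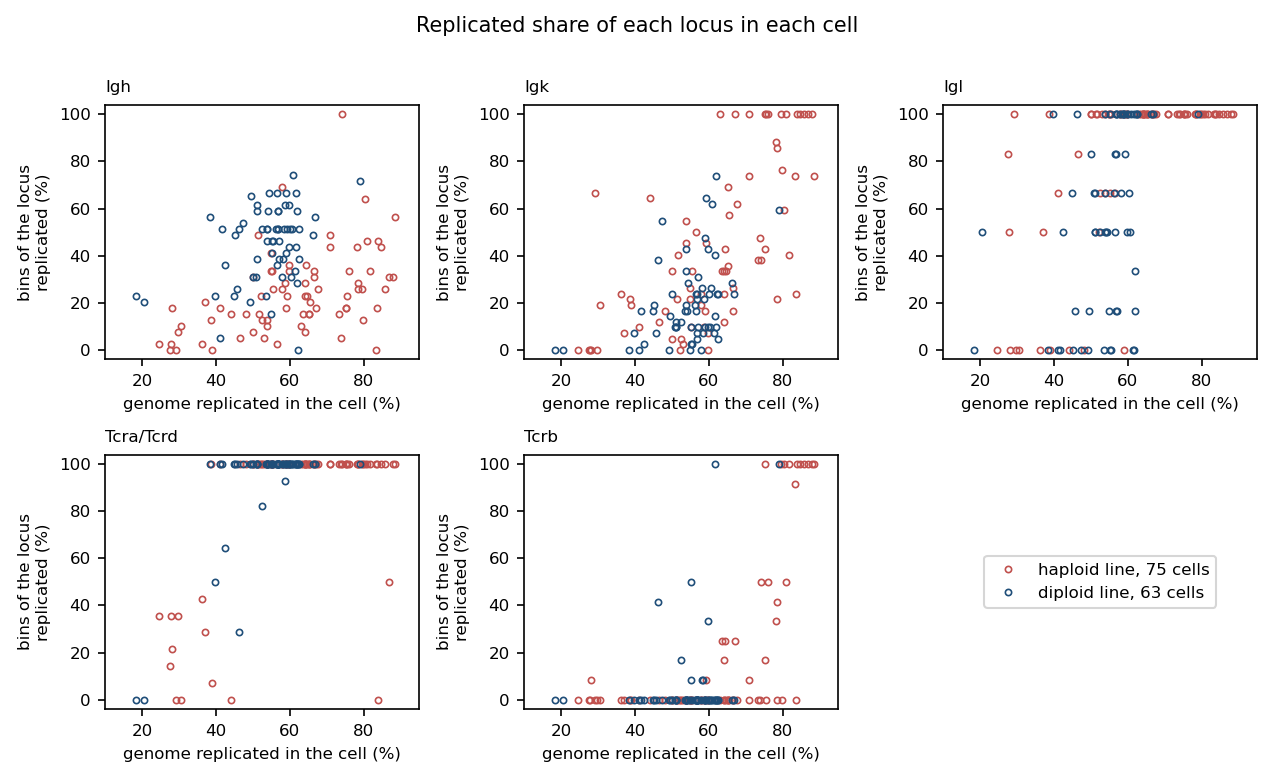
Share of the used bins of each locus replicated (y axis, %) in each cell against the share of its genome replicated (x axis, %), haploid cells in red and diploid cells in blue. Tcra/Tcrd is complete in most cells by mid S phase, Tcrb has no replicated bin in 24 of 25 haploid and 38 of 45 diploid mid-S-phase cells, and Igh and Igk are part replicated in most cells, Igh in 70 haploid and 62 diploid cells and Igk in 55 and 56.

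Replication off the schedule was counted as states more than 1.5 h ahead of or behind the time of the cell, with the cell left out of the schedule of its own line. Among states that lay ahead, 14.9% of 1077 in haploid Igk were already replicated, against 5.23% of all such haploid states. In diploid Igk the share was 6.10% of 1746, against 5.08% of all, and in Igl 33.3% of 39 haploid and 24.2% of 33 diploid states. In Igh the share was 6.62% of 1722 haploid and 6.67% of 1057 diploid states, and in haploid Tcrb 1.37% of 585. Among states that lay behind, 7.67% of 339 in haploid Igh and 10.5% of 580 in diploid Igh were still unreplicated, against 3.58% and 5.36% of all. When the schedule was taken over both lines, the haploid Igh share rose to 24.5% of 518 states and the diploid share ahead of schedule to 18.1% of 1451. States of neighbouring bins in a cell are not independent, so these shares carry no interval.

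Homologs were called different in few cells at these loci. A bin counted as asynchronous when the authors had set the 129 and the Castaneus homolog to different states, which they did only where parsed reads passed their limits, so equal states are the default. In Igh 1 of 63 diploid cells was asynchronous (exact 95% interval 0.0402% to 8.53%). It had replicated the Castaneus homolog alone over 27 bins, chr12:114650001-116000000, in the distal V segments. In Igk 1 cell had replicated the Castaneus homolog alone over 22 bins with a state, chr6:68950001-70750000, up to the C end. In Tcra/Tcrd 1 cell had replicated the 129 homolog alone over 5 bins, chr14:52400001-52650000, a stretch that takes in the olfactory receptor genes. They were 3 different cells, at 49.4%, 60.9% and 52.6% progress. Over all used bins, 1.62%, 1.68% and 6.02% were asynchronous in these cells, in the same sequence, against a mean of 0.870% over the 63 cells. The Tcra/Tcrd cell thus had many asynchronous bins elsewhere in its genome.

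Igl and Tcrb had 0 of 63 cells called asynchronous. For the share of called cells this allows up to 4.76% by the rule of 3 counts and up to 5.69% by the exact 95% interval. Asynchrony that the authors' limits missed is not covered, so the true share of asynchronous cells may be higher. In Tcrb 54 of the 63 diploid cells also had no replicated bin. Averaged over cells, 0.611% of Igh, 0.680% of Igk and 0.567% of Tcra/Tcrd bins were asynchronous, and 0.534% over the 5 loci, against 0.870% ± 1.59 of all used bins (SD, n = 63). Of the 113 used bins 38 (33.6%) were asynchronous in at least 1 cell, against 40.4% of all bins. A single cell accounted for each locus, so no difference from the rest of the genome was detectable with these cells.

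Genes that act on these loci sit elsewhere in the genome. Of 24 listed genes of recombination, receptor signalling and lymphocyte fate, 23 were matched to an annotated gene and all 23 lay in used bins, 18 of them (78.3%) before 5 h, with a median of 2.89 h. Of 19345 protein-coding genes in used bins, 80.2% lay before 5 h and the median was 2.52 h. Rag1 and Rag2, neighbours that encode the recombinase, shared a bin at 5.33 h. The end-joining genes ranged from Xrcc5 at 0.05 h and Nhej1 at 0.24 h to Xrcc4 at 6.95 h and Lig4 at 7.45 h. The receptor signalling genes Cd3e (0.10 h), Cd79a (0.42 h), Cd247 (0.81 h) and Cd79b (1.88 h) were early, as was Pax5 (1.44 h), which holds B cell identity. Line differences of the 23 genes ran from -0.19 to 0.38 with a median of 0.07. None passed 0.5, against 1.04% of all bins higher in the diploid and 0.607% higher in the haploid line. With 23 genes a count of 0 does not differ from those shares.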

How the data were processed

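The loci and gene lists were chosen with earlier results of these data known. Per the study's methods, the authors aligned reads to mm10 with Bowtie 2, counted them in 50 kb windows, corrected them by G1 and G2 control cells, masked windows of extreme control coverage, centred and scaled each cell and applied a median filter. The deposited smoothed values are a score, and the deposited binarized values are states from segmented scores, another kind of value. Software versions are not given in the sources used here. The 24 deposited columns of 8 diploid cells (16 binarized, 8 smoothed) that matched no label were not used, nor were 50 of the 188 labelled cells, which had no matched values.

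Bins were used when they were autosomal, had a state in every cell and a score in 50% or more of cells in both lines. Genes and segments came from GENCODE vM21, and gene bins are those of the gene start. The text names the constant gene of each locus, landmark genes beside it, listed pathway genes, and the lowest and highest bin of each locus. Olfactory receptor genes inside an interval were added after their values were seen. No test was made between lines. Alternatives were another schedule, centred chromosomes, mid-S-phase cells, finer strata, single homologs and narrowed intervals. Scripts used Python 3.11.15, NumPy 2.4.6, pandas 2.3.3, SciPy 1.17.1 and Matplotlib 3.10.9 and were tested on simulated data. Shares of cells have exact (Clopper-Pearson) intervals that cover the drawing of cells only.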

Additional observations from a re-analysis of the deposited data

How the results depend on the processing

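The values of 36 results were computed again under 136 alternatives. In 131 of them they stayed within the spread over cells or, for the count of Igh bins, within 1.5 times, and 5 changed sign. These were slopes or differences near 0. The spread over single cells is a wide limit, so staying within it does not show that a value is stable. The diploid Igk gradient, 0.11 h per Mb, became -0.20 with a schedule from binarized states and -0.0064 in mid-S-phase cells. The haploid Tcra/Tcrd gradient, -0.18, became 0.0725 with a schedule from binarized states. The haploid Tcrb gradient, 0.08, became -1.25 in mid-S-phase cells. The mean Tcrb line difference, -0.09, became 0.00879 as a plain difference of means. The causes were not tested. The count of 13 Igh bins ranged from 12 to 17. Removing 1 cell from each of the 3 near-identical diploid pairs was among the alternatives, and homolog asynchrony of Igk ranged from 0% to 0.714%, since it rests on a single cell outside 40% to 60% progress. Percentages replicated depended on the definition of a replicated bin, within wide spreads over cells. With a score above 0 counted as replicated, Igh fell from 24.1% to 13.5% in haploid cells, Igk from 43.4% to 21.8% in haploid and from 19.7% to 8.91% in diploid cells, Igl from 58.5% to 36.3% in diploid cells, and Tcrb from 19.3% to 8.48% in haploid and from 5.82% to 1.75% in diploid cells. In mid-S-phase cells haploid Igk was 22.9% and haploid Tcrb 0.333% replicated. As a plain difference of means the line difference of Igk went from 0.14 to 0.24, that of Igl from 0.31 to 0.195 and that of Tcra/Tcrd from -0.13 to -0.35. With chromosomes centred in each cell Tcra/Tcrd was at -0.079 and Tcrb at -0.057, and with strata of 5 percentage points at -0.083 and -0.062. Read depth is unknown, so counting error per bin could not be set. No paired analysis was possible because the numbers of the cells only name wells of separate plates and no test was made.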
